A study of Homo sapiens with 8 samples.

Results

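C/D box snoRNAs were described in 8 RNA sequencing libraries of HEK293T, a transformed human embryonic kidney cell line. The members were all rows of the deposited transcript table whose RefSeq identifier paired with a symbol that begins with SNORD, leaving out SNORD3A, SNORD118 and SNORD13, none of which had a row. The rule used names and no measured value. It gave 295 rows of 256 symbols among 53216 rows in all; 250 rows were plain identifiers and 45 were numbered further copies of the same identifier. Of the 295 rows, 37 were above 0 in at least 1 library and 258 were listed at 0 in all 8, including each of the 45 copies.

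The study asked which human RNAs carry an NAD cap and whether the decapping enzyme DXO removes it, as its title states. WT RiboMinus libraries (n = 2) hold total RNA of unmodified HEK293T cells after removal of ribosomal RNA. WT NAD-Capture libraries (n = 3) hold RNA of unmodified cells in which ADP-ribosylcyclase exchanged the cap's nicotinamide for a pentynol, so that biotin could be clicked on and the RNA drawn onto streptavidin beads. DXO-KO NAD-Capture libraries (n = 3) are the same capture from HEK293T cells whose labels give the modification DXO-KO. No group received a treatment, and the labels do not say how the DXO gene was changed, whether the line is 1 clone, or whether replicates were separate cultures; p-values therefore measure only the spread between these libraries. The captured libraries were made with the SMARTer Universal Low Input kit and the RiboMinus libraries with the TruSeq RNA v2 kit, so capture and kit cannot be told apart. Background reactions without the cyclase were not analysed here.

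Depth and labels bear on every value below. The deposited values are FPKM, fragments scaled by transcript length and library total. The totals they imply were 10676800 and 8724940 fragments for RiboMinus replicates 1 and 2. WT NAD-Capture replicates 1 to 3 had 192320, 165462 and 248663, and DXO-KO replicates 1 to 3 had 804779, 137824 and 80462.4. DXO RNA itself was 33.2, 17.2 and 27.1 FPKM in WT NAD-Capture and 127.6, 61.6 and 71.7 FPKM in the libraries labelled DXO-KO. Captured DXO RNA was thus not lower in them. The series holds no RiboMinus library of DXO-KO cells, so the level of DXO RNA in those cells is not known. These values do not settle whether the gene was disrupted, and the label is used as given throughout. Of 5 HEK293T markers, KRT8, VIM, NEFM and NEFL were above 0 in every library and KRT18 in 7. Of 8 markers of other cell types, PTPRC and HBB were at 0 everywhere, and no library held more than 9.28 FPKM of any, the highest being COL1A1 in WT NAD-Capture replicate 3. In RNA of bulk cultures, fewer cells that express a gene and less RNA per cell cannot be told apart.

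C/D box snoRNAs are short nucleolar RNAs with a C box near the 5′ end and a D box near the 3′ end. They bind fibrillarin, NOP56, NOP58 and SNU13 and guide the 2′-O-methylation of a base-paired target, most often ribosomal RNA. In human cells nearly all are cut from introns of host genes, and exonuclease trimming leaves a 5′ monophosphate end, whereas a few with their own promoters carry a methylated cap.

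The sequences of 8 members are shown because the results turn on them: 6 of the 7 that were above 0 in every library, and SNORD45A and SNORD11, which are the contrasting short members. Sequences are those of the GENCODE v29 transcripts on GRCh38, 5′ to 3′, with the C box core TGATGA and the D box CTGA in capitals where these exact letters occur within the first 25 and the last 20 bases.
SNORD15A: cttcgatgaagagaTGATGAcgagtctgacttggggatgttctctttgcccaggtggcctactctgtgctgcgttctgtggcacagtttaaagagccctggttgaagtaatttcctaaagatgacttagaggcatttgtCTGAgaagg
SNORD17: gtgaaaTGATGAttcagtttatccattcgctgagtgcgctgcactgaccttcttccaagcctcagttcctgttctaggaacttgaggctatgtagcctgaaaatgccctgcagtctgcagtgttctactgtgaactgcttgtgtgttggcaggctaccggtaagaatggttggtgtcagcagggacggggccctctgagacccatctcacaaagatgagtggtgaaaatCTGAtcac
SNORD97: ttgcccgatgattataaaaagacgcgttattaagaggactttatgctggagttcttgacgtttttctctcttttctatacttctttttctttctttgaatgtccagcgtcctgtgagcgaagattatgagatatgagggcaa
SNORD10: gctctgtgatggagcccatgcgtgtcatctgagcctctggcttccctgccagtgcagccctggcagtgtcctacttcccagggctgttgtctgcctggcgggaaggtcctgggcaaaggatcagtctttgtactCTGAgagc
SNORD22: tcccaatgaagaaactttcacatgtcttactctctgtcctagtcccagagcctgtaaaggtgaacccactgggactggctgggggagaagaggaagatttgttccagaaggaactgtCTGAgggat
SNORD89: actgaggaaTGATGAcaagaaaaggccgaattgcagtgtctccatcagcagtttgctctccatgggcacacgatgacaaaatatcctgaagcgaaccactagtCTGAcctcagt
SNORD45A: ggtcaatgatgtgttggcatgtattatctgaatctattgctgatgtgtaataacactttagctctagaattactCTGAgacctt
SNORD11: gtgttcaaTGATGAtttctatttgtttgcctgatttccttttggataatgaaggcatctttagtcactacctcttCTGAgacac

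Each of the 8 lies within a host gene on the host's strand (GRCh38). SNORD15A (chr11:75400391-75400538, plus strand) sits in an intron of RPS3, a ribosomal protein gene that also hosts SNORD15B, and none of the 16 RPS3 transcripts annotated across it has an exon there. SNORD17 (chr20:17962710-17962946, minus) is in an intron of SNX5, SNORD97 (chr11:10801467-10801608, minus) of EIF4G2, SNORD89 (chr2:101272936-101273049, minus) of RNF149 and SNORD11 (chr2:202293051-202293134, plus) of NOP58, again with no annotated exon overlap. SNORD10 (chr17:7576811-7576952, plus) is in EIF4A1, SNORD22 (chr11:62852910-62853035, minus) in SNHG1 and SNORD45A (chr1:75787889-75787972, plus) in RABGGTB. For these last 3, host transcripts with an exon across the snoRNA are annotated (1 of 17, 3 of 15 and 2 of 12), so fragments of a retained host exon and of the snoRNA cannot be told apart. SNORD15A and SNORD15B are the 2 copies of the U15 family. SNORD10 is 148 nt in RefSeq, whereas the GENCODE transcript printed here is 142 nt.

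The letters TGATGA were found within the first 25 bases of 166 of the 230 members with a sequence (72.2%), and CTGA within the last 20 bases of 223 (97.0%). For comparison, among 105 H/ACA snoRNAs, the other large snoRNA class, TGATGA stood there in 1 (0.952%) and CTGA in 10 (9.52%). Among members above 0 the 2 boxes stood in 24 (72.7%) and 32 (97.0%) of 33 with a sequence, and among members at 0 in 142 (72.1%) and 191 (97.0%) of 197. A missing match says only that these exact letters were not in the window, as for the C box of SNORD97, SNORD10, SNORD22 and SNORD45A.

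The share of members above 0 rose with length, although most members above 0 were of at most 100 nt. Annotated length ran from 33 to 237 nt with a median of 78 nt, and the 37 rows above 0 had a median of 95 nt. Of 275 rows up to 100 nt, 24 were above 0 in some library; of 20 longer rows, 13 were. All 6 rows over 130 nt were above 0, against 1 of 51 rows up to 70 nt. H/ACA snoRNAs, which are longer as a class, were above 0 in 94 rows (83.2%); at 131 to 150 nt the counts were 69 of 81 for H/ACA and 5 of 5 for C/D, and at 101 to 130 nt 17 of 22 and 7 of 14. The members at 0 were mostly short RNAs, and a value of 0 there does not give their level.

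**Figure D1:**
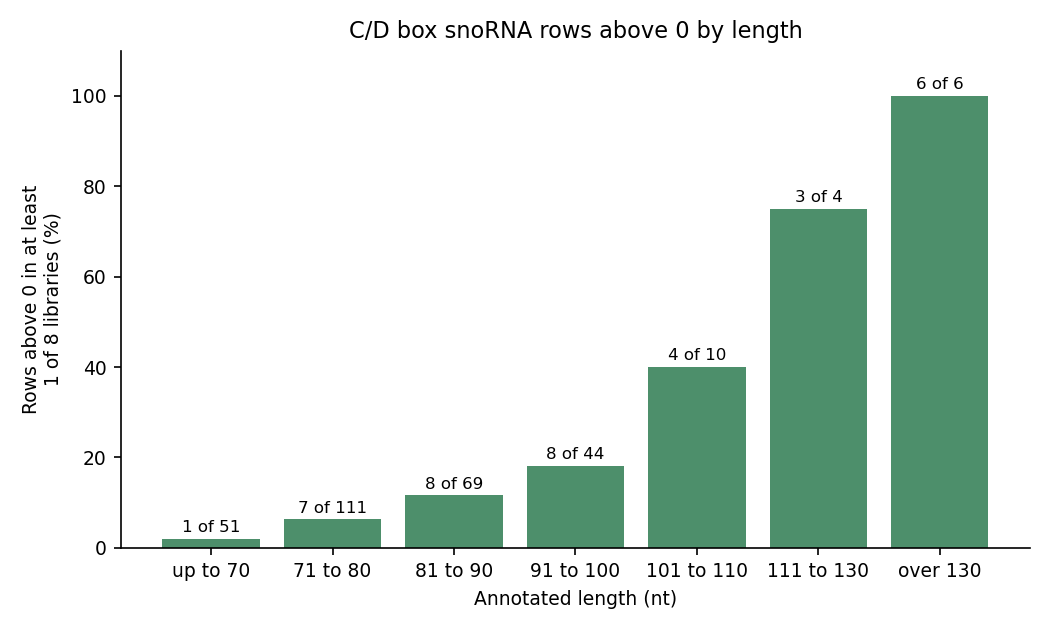
Share of C/D box snoRNA rows above 0 in at least 1 of the 8 libraries (y axis, percent) by annotated length (x axis, nt); the counts above the bars are rows above 0 of all rows. The share was lowest up to 70 nt (1 of 51) and reached 6 of 6 over 130 nt.

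By genomic origin, the imprinted clusters that hold many copies were almost all at 0. In the imprinted 15q11 region, which carries the SNORD115 and SNORD116 arrays expressed mainly in neurons, 1 of 86 rows was above 0. This was SNORD115-32, at 29240 FPKM in WT NAD-Capture replicate 3 alone, a value that rested on 1 fragment. In the imprinted 14q32 region, with the SNORD113 and SNORD114 arrays, 0 of 38 rows were above 0. Introns of GAS5, a host RNA with little coding potential, gave 2 of 10 (SNORD79 and SNORD76), those of SNHG1 2 of 8 (SNORD22 and SNORD27) and those of RPL13A 1 of 4 (SNORD33). The U14 family, needed for pre-ribosomal RNA processing, had no row. The remaining 149 rows, spread over many hosts, included 31 above 0. Of all members, each RiboMinus library had 17 or 24 above 0, WT NAD-Capture replicates 1 to 3 had 12, 14 and 11, and DXO-KO replicates 1 to 3 had 21, 16 and 14.

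The FPKM of short RNAs rests on how many sequenced fragments lie behind it, and this could be recovered. In each library the values of RNAs of the same length were whole multiples of a common step, the FPKM of 1 fragment; with steps fitted across lengths, 90.4% to 96.0% of low values came out within 0.1 of a whole number. The step rose steeply as length fell. Relative to 1 fragment on a transcript of 1 kb, 1 fragment on an RNA of 148 nt counted 43.8 to 51.8 times as much in 5 NAD-Capture libraries, and 1 on an RNA of 84 nt 3668 to 4568 times as much. DXO-KO replicate 3 stood apart from these with 146 times at 148 nt and 9234 times at 84 nt. In that library the step followed a normal distribution of fragment lengths with mean 200 and SD 80 nt within 1% at 29 of 30 lengths, whereas 19.4% to 60.0% of lengths did so in the other NAD-Capture libraries. RiboMinus replicates 1 and 2 also differed, at 107.4 and 72.0 times for 148 nt and 14398 and 7790 times for 84 nt. FPKM of the same member in different libraries was thus not on a common scale for short RNAs.

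**Figure D2:**
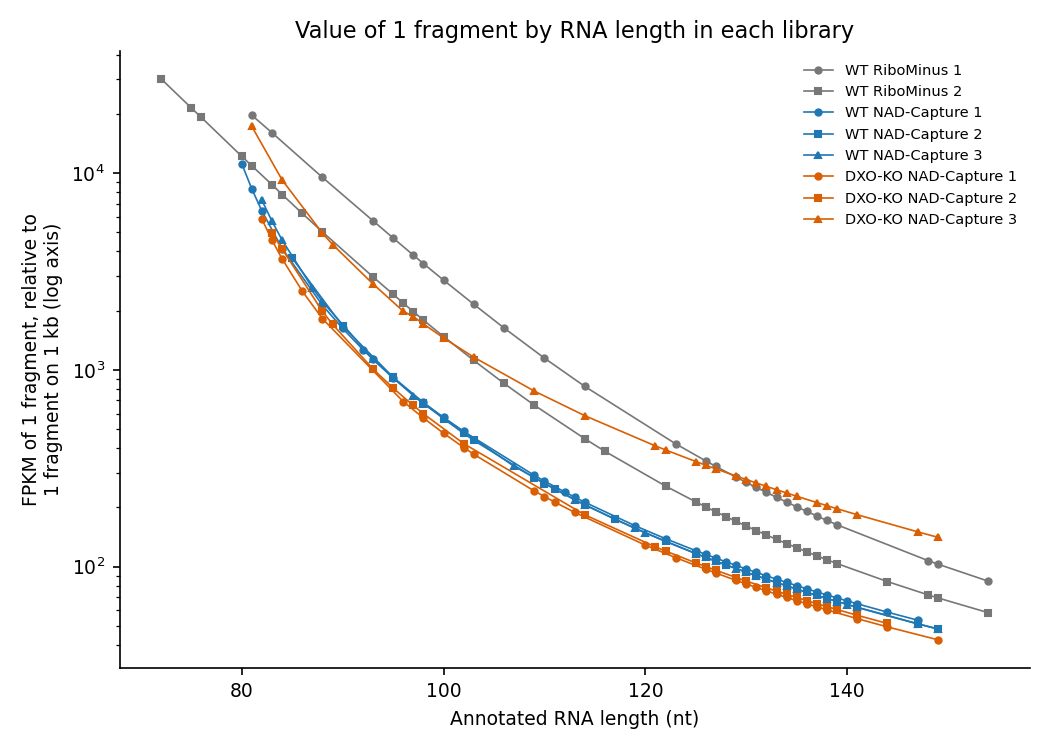
FPKM of 1 fragment relative to 1 fragment on 1 kb (y axis, log scale) against annotated RNA length (x axis, nt), 1 line per library. WT NAD-Capture and DXO-KO replicates 1 and 2 lie close together (43.8 to 51.8 at 148 nt), while DXO-KO replicate 3 (146) and the RiboMinus libraries (107.4 and 72.0) lie above them.

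Most member values rested on very few fragments. Of 129 values above 0, fragments could be recovered for 118; 44 of these (37.3%) were 1 fragment and 68 (57.6%) were at most 3. SNORD17 and 3 short members (SNORD87, SNORD27 and SNORD42B) lay outside the fitted lengths and are given in FPKM. Counts above about 20 carry an error of a few percent from the step, and intervals below are 95% Poisson intervals for counting error alone, because amplified copies of a molecule are not independent. CPM below means recovered fragments per 1000000 fragments of the library total, which is the total implied by the authors' own scaling.

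The weight of C/D box snoRNAs in a library looked very different on the 2 scales. Members took 3.19% and 5.86% of summed FPKM in RiboMinus, 11.5%, 15.2% and 11.2% in WT NAD-Capture, then 21.8%, 75.0% and 29.8% in DXO-KO. Recovered fragments of members came to 26.5 and 38.6 CPM in RiboMinus, 1212, 1191 and 571 in WT NAD-Capture, then 1896, 2968 and 2523 in DXO-KO. These fragment sums leave out SNORD17 in all 8 libraries, and SNORD27, SNORD42B or SNORD87 in 1 library each. They are therefore lower bounds, and what SNORD17 would add was counted in DXO-KO replicate 3 alone. How far the sums of all members differ between groups is thus not known. For these values of the C/D members the groups did not overlap on either scale, in the order RiboMinus, WT NAD-Capture, DXO-KO. The separation on FPKM was lost without members at 0 in the other libraries of their group, where DXO-KO replicate 2 (10.4%) lay below WT NAD-Capture replicates 1 and 2 (11.5% and 14.98%). Leaving out SNORD17, the members SNORD15A, SNORD15B, SNORD10 and SNORD97 carried 87.5% to 94.4% of the recovered member fragments, and 1.92% to 32.2% of the FPKM of all members. In DXO-KO replicate 3, where SNORD17 could be counted, its 155 fragments beside 203 of the other members made that share 49.7% and the sum 4449 CPM. The 75.0% in DXO-KO replicate 2 came mainly from SNORD87, a guide for 28S ribosomal RNA of 76 nt, listed at 5369880 FPKM (62.7% of the library) there and at 0 in the other 7 libraries. Without that library the mean share of FPKM in DXO-KO was 25.8% in place of 42.2%.

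**Figure D3:**
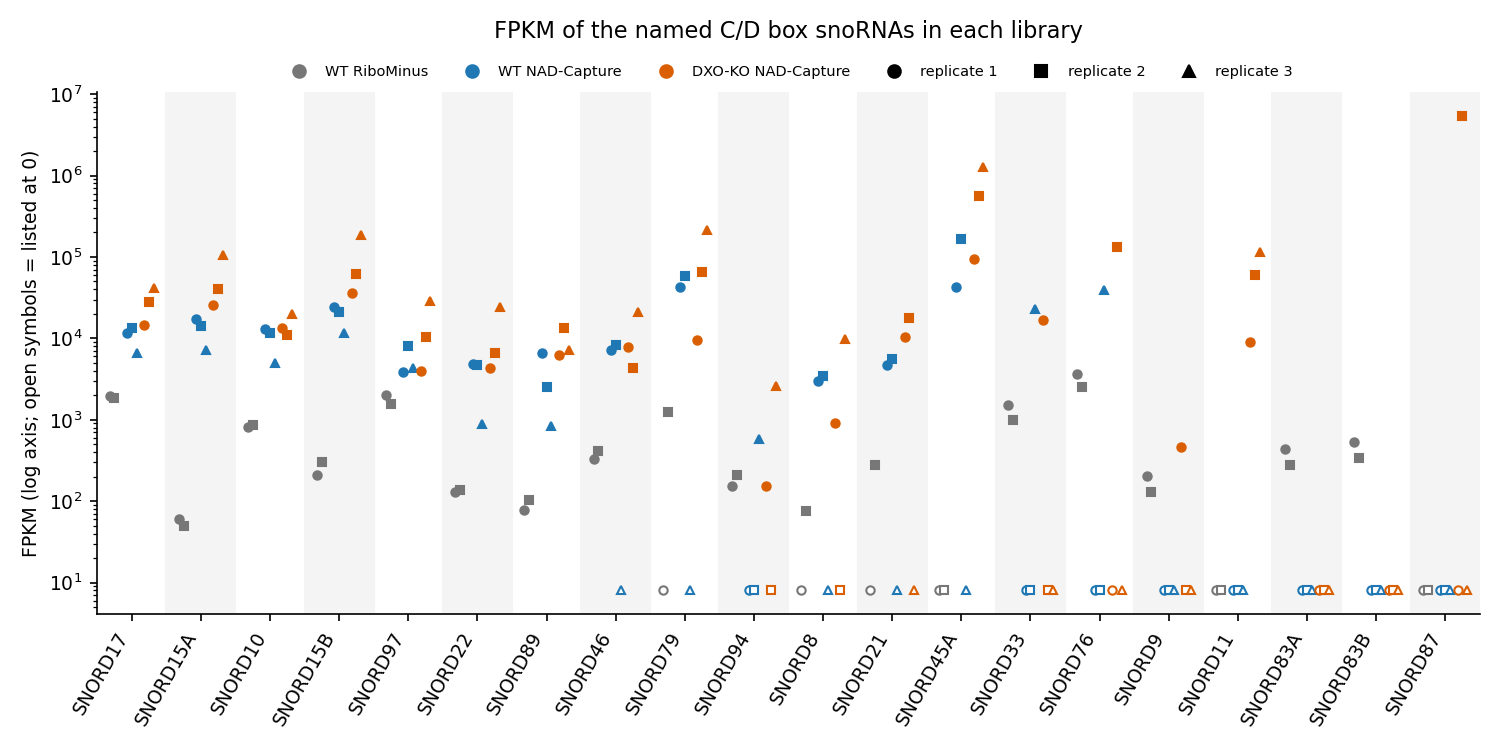
FPKM (y axis, log scale) of the 20 named members in each library; colour gives the group, symbol shape the replicate, and open symbols at the bottom mark values listed at 0. Members above 0 in all 8 libraries are at the left; SNORD87 at the right has 1 value, 5369880 FPKM in DXO-KO replicate 2.

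Leaving out SNORD17, the pair of U15 copies, long guides of 28S ribosomal RNA, had the most recovered fragments in each captured library. In DXO-KO replicate 3, where SNORD17 was counted, its 155 fragments exceeded those of either copy. SNORD15A was 60.4 and 49.5 FPKM in RiboMinus, 17526, 14128 and 7187 in WT NAD-Capture, then 25608, 40007 and 104923 in DXO-KO. These values rested on 6 and 6, on 65, 47 and 36, and on about 471, 122 and 58 fragments. In CPM they were 0.562 and 0.688, then 338, 284 and 145, then 585, 885 and 721, so the 3 groups did not overlap.

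SNORD15B, the other U15 copy, had the same order. It was 209 and 302 FPKM in RiboMinus, 24361, 21088 and 11674 in WT NAD-Capture, then 35724, 62119 and 185207 in DXO-KO. The fragments behind these were 19 and 34, then 85, 66 and 55, then about 619, 178 and 96. In CPM this is 1.78 and 3.90, 442, 399 and 221, and 769, 1292 and 1193. DXO-KO replicate 3 was highest in FPKM for both U15 copies but lay between the other DXO-KO replicates in CPM.

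SNORD17, the longest member at 237 nt and another 28S guide, was 1973 and 1838 FPKM in RiboMinus, 11782, 13398 and 6681 in WT NAD-Capture, then 14786, 27647 and 41916 in DXO-KO. Its fragments were recovered in DXO-KO replicate 3, where they numbered 155. The groups were again apart on the FPKM scale, the one scale available for it.

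The other 28S guides were scarce. SNORD46 rested on 1 and 2 fragments in RiboMinus, 2, 2 and 0 in WT NAD-Capture, then 11, 1 and 1 in DXO-KO. SNORD21 rested on 0 and 1, 1, 1 and 0, and 11, 3 and 0 fragments. SNORD79, of 81 nt, never exceeded 1 fragment, yet its FPKM reached 58616 in WT NAD-Capture replicate 2 and 214564 in DXO-KO replicate 3. SNORD76, from the same GAS5 host, rested on 2 and 2, 0, 0 and 1, and 0, 2 and 0 fragments. None of these 4 separated the NAD-Capture groups.

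Among guides of 18S ribosomal RNA, SNORD45A was the member with the most fragments. It was listed at 0 in both RiboMinus libraries, at 43049, 164464 and 0 FPKM in WT NAD-Capture, and at 95710, 568200 and 1262420 in DXO-KO. The fragments were 0 and 0, 2, 6 and 0, and 21, 19 and 11. In CPM, DXO-KO replicate 1 (26.1, interval 16.2 to 39.9) lay below WT NAD-Capture replicate 2 (36.3, interval 13.3 to 78.9), so the groups overlapped, while DXO-KO replicates 2 and 3 (138 and 137) were higher. Over the 8 libraries its log2(FPKM + 1) ran most like that of SNORD22 (Pearson r 0.93), SNORD89 (0.91) and SNORD17 (0.91) among 9 candidates. The candidates shared library and depth, and FPKM was not a common scale for short RNAs. For SNORD87 the highest values of r were 0.42 (SNORD89), 0.38 (SNORD17) and 0.30 (SNORD97). SNORD87 was above 0 in DXO-KO replicate 2 alone, so these values say nothing about likeness.

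SNORD11 was at 0 in RiboMinus and WT NAD-Capture and at 9115, 59810 and 114765 FPKM in DXO-KO. These large values were 2, 2 and 1 fragments. The limit that a count of 0 allows in WT NAD-Capture (3 fragments) was 15.6, 18.1 and 12.1 CPM, and the DXO-KO values were 2.49, 14.5 and 12.4 CPM. The intervals of the DXO-KO values (0.301 to 8.98, 1.76 to 52.4 and 0.315 to 69.2 CPM) all reached below those limits, so a difference was not detectable at this depth on the fragment scale. SNORD33, the third 18S guide, rested on 1 and 1, 0, 0 and 1, and 3, 0 and 0 fragments.

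Guides of the spliceosomal U6 snRNA were led by SNORD10. It was 825 and 866 FPKM in RiboMinus, 13212, 11723 and 4991 in WT NAD-Capture, then 13538, 10911 and 19899 in DXO-KO. Fragments were 82 and 105, then 49, 39 and 25, then about 249, 33 and 11. In CPM that gives 7.68 and 12.03, then 255, 236 and 101, then 309, 239 and 137, so both captured groups lay above RiboMinus and overlapped each other.

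The remaining U6 guides were thin. SNORD94 had 9 and 16 fragments in RiboMinus, 0, 0 and 2 in WT NAD-Capture, then 2, 0 and 1 in DXO-KO. SNORD8 had 0 and 1, 2, 2 and 0, and 3, 0 and 1. SNORD9, which shares the host CHD8 with SNORD8, had 1 and 1, then none, then 1, 0 and 0. Among members with recovered counts SNORD94 was the fourth most abundant per length in RiboMinus, at 9.77 ± 5.11 CPM per kb (SD, n = 2).

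SNORD97, which guides methylation of the elongator methionine tRNA, was the most abundant per length in RiboMinus among members with recovered counts. It was 2019 and 1567 FPKM there, 3909, 7993 and 4346 in WT NAD-Capture, then 3927, 10340 and 28663 in DXO-KO. Fragments were about 153 and 150, then 12, 22 and 18, then 60, 26 and 13. In CPM it was 14.3 and 17.2, 62.4, 133 and 72.4, and 74.6, 189 and 162. The captured libraries were above RiboMinus, and the 2 captured groups overlapped.

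Members without a known target were thinly covered, SNORD22 the least so. SNORD22 rested on 4 and 6 fragments in RiboMinus, 8, 7 and 2 in WT NAD-Capture, then 36, 9 and 6 in DXO-KO, or 0.375 and 0.688, 41.6, 42.3 and 8.04, and 44.7, 65.3 and 74.6 CPM. SNORD89 rested on 1 and 2, 6, 2 and 1, and 28, 10 and 1 fragments. SNORD83A and SNORD83B, neighbours in the ribosomal protein gene RPL3, were each 1 fragment in both RiboMinus libraries and 0 in all 6 captured libraries.

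**Figure D4:**
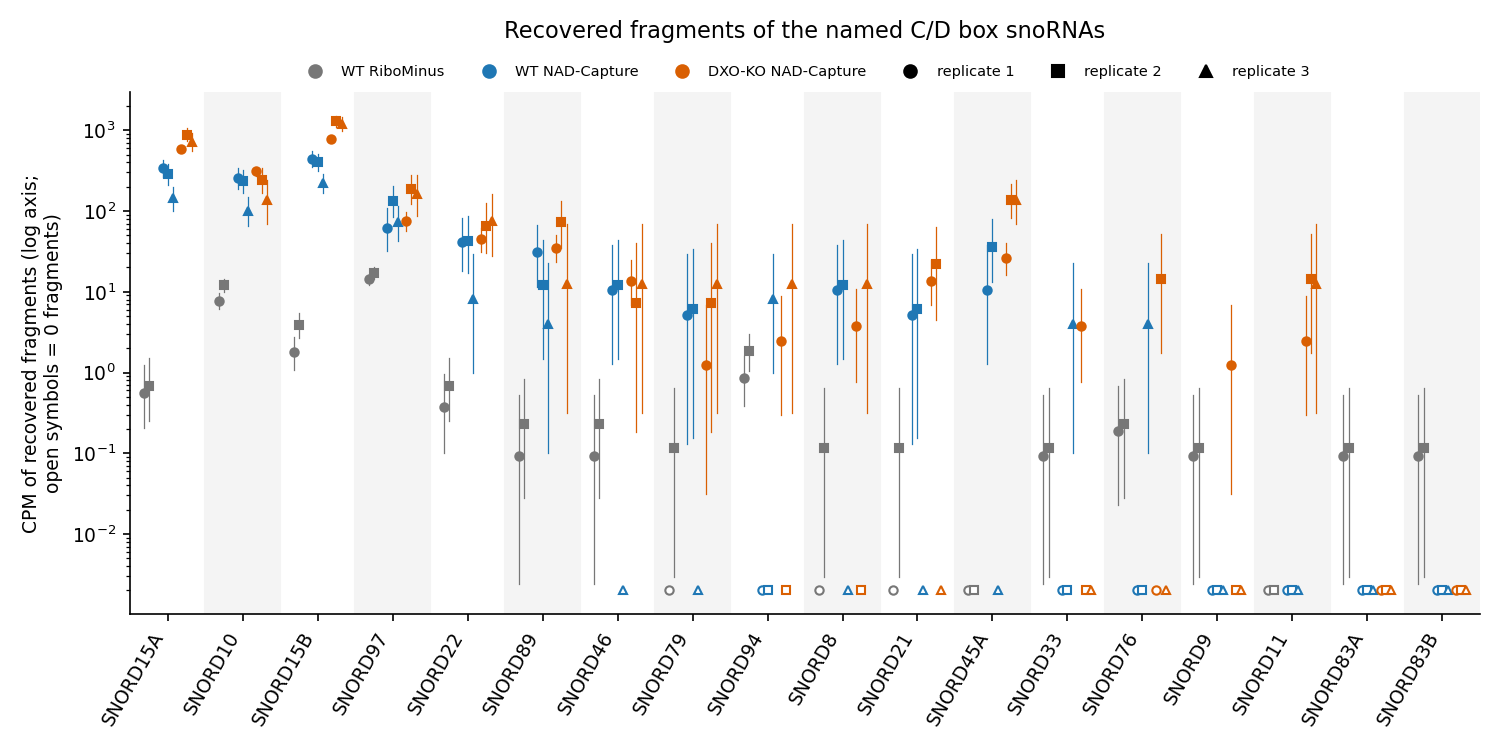
CPM of recovered fragments (y axis, log scale) of 18 named members in each library, with 95% Poisson intervals as bars; open symbols at the bottom mark 0 fragments, and SNORD17 and SNORD87 are left out because their counts were not recovered in enough libraries. The intervals of SNORD15A and SNORD15B are narrow and the 3 groups are apart, whereas those of most members from SNORD46 to the right span 10-fold or more.

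The order of the members per length differed between the input and the capture. Among members with recovered counts, it was in RiboMinus SNORD97 (111 ± 14.3 CPM per kb, SD, n = 2), SNORD10 (66.6 ± 20.8) and SNORD15B (19.4 ± 10.3), whose ranges did not overlap, with SNORD15A, the fifth, at 4.22 ± 0.601. In WT NAD-Capture it was SNORD15B (2425 ± 802, n = 3), SNORD15A (1727 ± 674), SNORD10 (1331 ± 568) and SNORD97 (629 ± 269). The ranges of neighbours overlapped between libraries, but within each WT NAD-Capture library the order was the same. In DXO-KO it was SNORD15B (7429 ± 1901, n = 3), SNORD15A (4935 ± 1015), SNORD10 (1544 ± 587), SNORD45A (1193 ± 764) and SNORD97 (997 ± 420). There the ranges of SNORD15A and SNORD15B overlapped, with SNORD15B above SNORD15A within each library. Both lay above SNORD10 in each library, the gap between SNORD15A and SNORD10 being larger than their spread.

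WT NAD-Capture was compared with WT RiboMinus for what the capture holds relative to the input. A set of 6 members were higher in the capture on the FPKM scale: SNORD15A, SNORD15B, SNORD89, SNORD22, SNORD10 and SNORD17. Tested with limma on log2(FPKM + 1) over the 24777 transcripts with a mean of at least 1 FPKM, 9 of 31 tested members had an adjusted p under 0.05 (Benjamini-Hochberg), against 25.7% of all transcripts tested. Of these, 6 were higher, against 12.6% of all, and 3 lower, against 13.1%. A share of 9 in 31 is close to the background and is not particular to these RNAs.

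The log2 difference was 7.77 (SE 0.44, adjusted p 0.00234 by limma) for SNORD15A and 6.17 (SE 0.40, adjusted p 0.0025) for SNORD15B. It was 4.73 for SNORD89, 4.34 for SNORD22, 3.44 for SNORD10 and 2.42 for SNORD17; the last became -0.31 after quantile normalization. SNORD97 missed the threshold at 1.53 (SE 0.38, adjusted p 0.0552), although its libraries did not overlap between the groups; after quantile normalization it was at -0.96. Members whose groups did not overlap numbered 7 higher, against 21.3% of all transcripts, and 3 lower, against 26.5%. Without RiboMinus replicate 1 the adjusted p of SNORD22, SNORD10, SNORD17 and SNORD89 rose to 0.26, 0.17, 0.19 and 0.27, and without replicate 2 to 0.25, 0.16, 0.20 and 0.24. Without WT NAD-Capture replicate 1 or 2 that of SNORD22 was 0.070 or 0.069, without replicate 2 that of SNORD89 was 0.076, and without replicate 3 the count of called members was 14.

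The 3 members called lower were SNORD83B (log2 difference -8.74), SNORD83A (-8.45) and SNORD9 (-7.34). Each stood on 1 fragment in each RiboMinus library, or 0.0937 and 0.115 CPM, while 0 fragments in WT NAD-Capture allow up to 15.6, 18.1 and 12.1 CPM. A fall of these members was thus not detectable at this depth. The median log2 difference of the 31 tested members was -3.38, against 0.24 over all transcripts, and it turned to 3.37 over the 17 tested on the fragment scale described next. Its sign follows which members passed the filter and supports nothing about the members: on FPKM 13 of the 31 were above 0 in RiboMinus alone and 4 in WT NAD-Capture alone, and on fragments 0 and 4 of the 17. On FPKM it was 0.0027 without RiboMinus replicate 1 and 2.92 without replicate 2.

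Short noncoding RNAs were also expressed as CPM per kb of full length. On that scale 17 members passed the same filter and 6 were called higher, against 12.6% of all transcripts higher. None was called lower, and 0 of the 3 members called lower on FPKM passed the filter. Of the 17, 4 were above 0 in WT NAD-Capture alone and 0 in RiboMinus alone. The filter thus kept no member seen in RiboMinus alone, so the lack of lower calls and the share of 6 in 17 support nothing about the members. The 6 were SNORD15A (log2 difference 8.29, SE 0.43, adjusted p 0.00221), SNORD15B (6.93), SNORD89 (5.45), SNORD22 (5.25), SNORD10 (4.22) and SNORD97 (2.42, SE 0.38, adjusted p 0.0165). In ratios of mean CPM, SNORD15A was 409 times, SNORD15B 125 times, SNORD10 20.0 times and SNORD97 5.66 times its RiboMinus level. This scale was chosen after the values had been seen.

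Host genes and the snoRNAs within them differed in the size, and in part the sign, of their differences. On FPKM summed per symbol, RPS3 was higher in WT NAD-Capture by 1.48 on the log2 scale (SE 0.20, adjusted p 0.00734 by limma), against 7.77 and 6.17 for the U15 copies in its introns. EIF4G2, the host of SNORD97, was lower by a log2 difference of -1.50 (adjusted p 0.00645 by limma). SNORD97 was at 1.53, which missed the threshold (adjusted p 0.0552 by limma), and at -0.96 after quantile normalization. SNHG1 was at -1.48 (adjusted p 0.0594) and SNORD22 within it at 4.34. Of 14 tested host genes, 2 were higher (RPL5 and RPS3), against 16.5% of all symbols, and 2 lower (CHD8 and EIF4G2), against 7.94%. These snoRNA values are on FPKM, which was not a common scale for short RNAs. On the fragment scale SNORD15A, SNORD15B, SNORD97 and SNORD22 were at 8.29, 6.93, 2.42 and 5.25. The host differences and the snoRNA differences were not tested against each other.

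Of the proteins that make and trim these RNAs, NOP56, a core protein, was lower by a log2 difference of -1.72 (adjusted p 0.00361 by limma) in WT NAD-Capture, 1 of 4 core genes tested. Among 7 assembly factors RPAP3 was lower (-1.32, adjusted p 0.0413), and among 5 trimming and decay genes EXOSC10 (-1.58), XRN2 (-1.61) and PARN (-1.92) were lower. No gene of these 3 lists was higher. Over all symbols, 7.94% were lower and 16.5% higher. Fibrillarin (FBL), the methyltransferase, was 182 and 179 FPKM in RiboMinus and 199, 358 and 303 in WT NAD-Capture, which did not pass the test (adjusted p 0.185 by limma).

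Captured RNA of the libraries labelled DXO-KO was compared with captured WT RNA. SNORD15A, SNORD15B and SNORD17 were higher in each DXO-KO library than in any WT library, but did not pass the test over all transcripts. By limma on log2(FPKM + 1), 1 of 27 tested members had an adjusted p under 0.05, against 0.032% of 25004 transcripts (8 in all). It was higher, against 0.024% of all transcripts higher, and 0 members were lower, against 0.008%. At an unadjusted p under 0.05, a threshold not counted over all transcripts, 1 member in all remained. The member was SNORD11 (log2 difference 15.28, SE 0.86, adjusted p 0.00307 by limma), whose values are the 2, 2 and 1 fragments given above. It was at 0 in every WT NAD-Capture library and passed the filter through DXO-KO alone. The call and its share over all transcripts thus support nothing about the members. The size of its difference moved with the setting, from 6.53 to 18.60. Without WT NAD-Capture replicate 1 or 3 its adjusted p by limma was 0.071 or 0.070.

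Members whose groups did not overlap numbered 4 higher (SNORD11, SNORD15A, SNORD15B and SNORD17), against 7.57% of all transcripts, and 0 lower, against 8.53%. Among these, SNORD11 had passed the filter through DXO-KO alone. The log2 difference was 1.97 (SE 0.90, adjusted p 0.547 by limma) for SNORD15A, 2.03 (SE 1.01, adjusted p 0.547) for SNORD15B and 1.34 (SE 0.76, adjusted p 0.57) for SNORD17. SNORD45A was at 7.74 with an SE of 4.17. SNORD10 was at 0.64 and SNORD97 at 1.03; after quantile normalization they were at -0.57 and -0.06. The median over the 27 members was 2.03, against -0.06 over all transcripts; 9 of the 27 passed the filter with values above 0 in DXO-KO alone and 1 in WT NAD-Capture alone, so the median is given as a description of the members that passed.

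On the fragment scale the differences of both U15 copies were smaller. SNORD15A was 2.86 times and SNORD15B 3.06 times its WT mean CPM, where the ratios of mean FPKM were 4.39 and 4.96. Their log2 differences were 1.58 (SE 0.45, adjusted p 0.349 by limma) and 1.64 (SE 0.46, adjusted p 0.335). SNORD22 was 2.01 times, SNORD97 1.59 times and SNORD10 1.16 times its WT mean. Of 24 tested members, 0 had an adjusted p under 0.05 by limma, against 0.024% of all transcripts in either direction and 0.016% higher. SNORD11 was at 6.53 (adjusted p 0.0561 by limma). An unadjusted p under 0.05 was found for 3 members, without a count over all transcripts beside it. The median over the members that passed was 1.32, with 7 of the 24 above 0 in DXO-KO alone and 1 in WT alone. In depth, DXO-KO replicate 1 (804779 fragments) lay above and DXO-KO replicates 2 and 3 (137824 and 80462.4) below every WT NAD-Capture library (165462 to 248663); its part in the result was not tested.

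**Figure D5:**
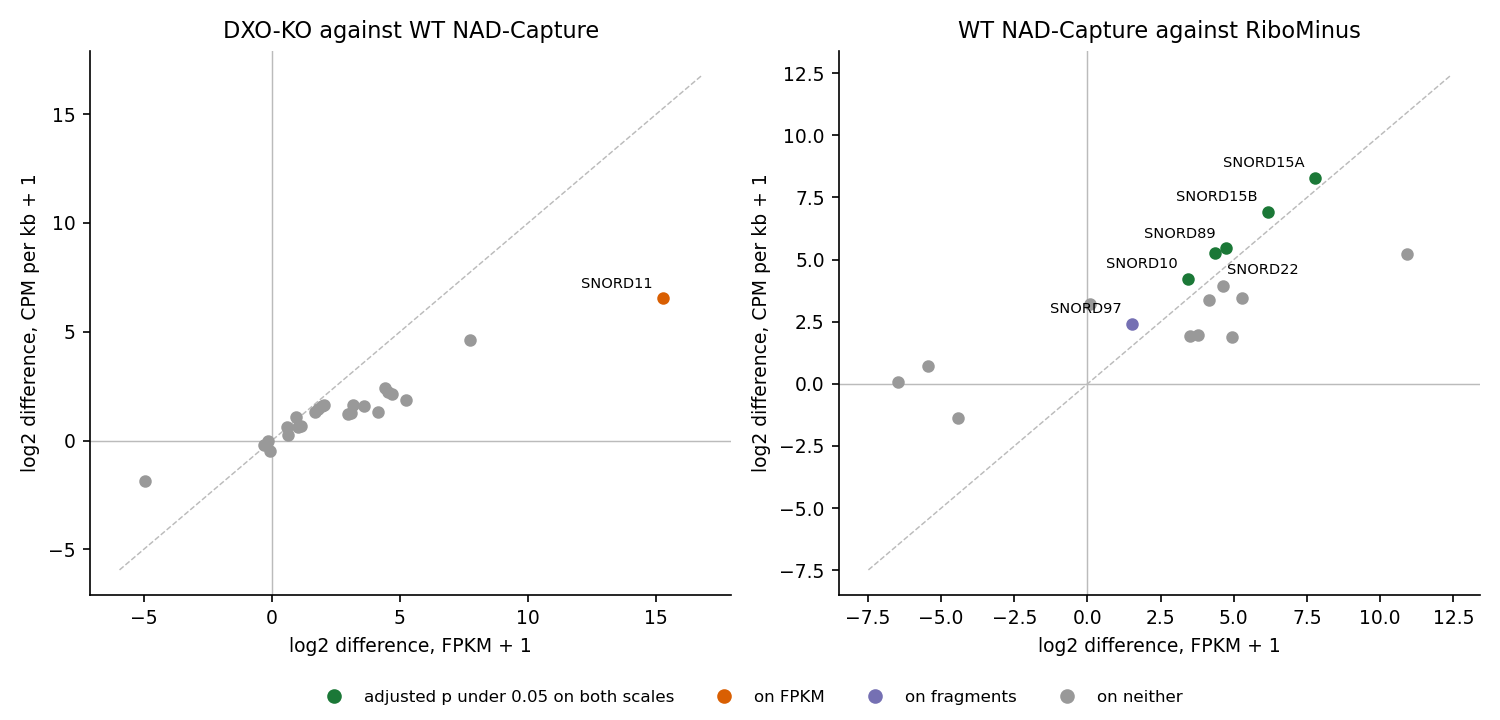
Log2 difference of each member tested on both scales, on log2(FPKM + 1) (x axis) and on log2(CPM per kb + 1) (y axis), for DXO-KO against WT NAD-Capture (left) and WT NAD-Capture against RiboMinus (right); the dashed line marks equal values and colour marks an adjusted p under 0.05. At right SNORD15A, SNORD15B, SNORD89, SNORD22 and SNORD10 are called on both scales and SNORD97 on fragments; at left SNORD11 is called on FPKM (15.28) and not on fragments (6.53).

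In the same comparison 0 genes of the core, assembly, trimming and decay, and host gene lists passed the test on FPKM summed per symbol, where 0.0171% of all 17594 symbols were higher and 0.0171% lower. RPS3 differed by 0.08 on the log2 scale (SE 0.40) between the libraries labelled DXO-KO and WT. The U15 copies within it differed by 1.97 and 2.03 on FPKM and by 1.58 and 1.64 on the fragment scale. EIF4A1, the host of SNORD10, was at -1.09 (SE 0.38, adjusted p 0.225 by limma), and SNHG1, the host of SNORD22, at 1.12 (SE 0.40, adjusted p 0.229). NOP58, the host of SNORD11 and itself a core protein of these particles, was at 0.05 (SE 0.33).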

How the data were processed

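RNA of HEK293T cells was sequenced in 8 libraries (2 WT RiboMinus, 3 WT NAD-Capture, 3 DXO-KO NAD-Capture). The authors deposited FPKM per RefSeq transcript and replicate; per the submitters' processing notes the tools were TopHat2 2.1.1, Bowtie2 2.2.8.0 and Cuffdiff with the build hg19. Scaling between libraries, and any treatment of short transcripts, is not given in the sources used here. A RefSeq gene table of GRCh38.p14 paired 52028 of 53216 rows (97.8%) with symbols and gave lengths; coordinates are those of GRCh38 and were not converted.

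The step of 1 fragment was fitted per library over short noncoding RNAs, and depth from transcripts that were the only one of their symbol. The step fit and the test below were tested on simulated data. Groups were compared with limma 3.58.1 in R 4.3.3 (eBayes with trend, two-sided) on log2(FPKM + 1), filter mean FPKM of at least 1, threshold 0.05 after Benjamini-Hochberg adjustment over all rows tested. Fold changes on this scale understate low transcripts. Python 3.11.15, numpy 2.4.6, pandas 2.3.3 and scipy 1.17.1 were used. Sequences are from GENCODE v29; that of 1 further member is not reported here.

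Members and lists were chosen with earlier results of these data known. Members named with values were those above 0 in at least 3 libraries, those with an adjusted p under 0.05 in either comparison, and those over 5% of the summed FPKM of a library; others are named where a count calls for it. Alternatives were another pseudocount, 3 other filters, centring, quantile normalization, sums per symbol, all libraries in 1 fit, the replicate block, single libraries left out and, added later, recovered fragments.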

Additional observations from a re-analysis of the deposited data

How the results depend on the processing

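The fragment scale was chosen after seeing the data; all other alternatives were planned. For DXO-KO against WT NAD-Capture, the 1 member called became 0 with values above 0 in every library, against 0.128% of all transcripts. The count was 0 also with the replicate block (0% of all) and on the fragment scale (0.024%). Leaving out WT replicate 1 (0.0041%) or 3 (0%) gave 0 as well, the range being 0 to 1 over single libraries left out. The median of 2.03 was 0 with no filter, 1.70 with values above 0 in every library, 2.48 after centring, 1.14 after quantile normalization, 1.32 on fragments, and 2.00 to 3.42 with 1 library left out. For WT NAD-Capture against RiboMinus, the 9 members called became 5 with no filter and 0 with the replicate block, and 8 to 14 with 1 library left out, 14 being without WT NAD-Capture replicate 3. The median of -3.38 was -5.04 with a pseudocount of 0.1, 0 with no filter, -3.85 after centring, 4.34 with values above 0 in every library, 3.37 on fragments, and -3.54 to 2.92 with 1 library left out; it turned positive without either RiboMinus replicate. The mean share of summed FPKM, 4.53% in RiboMinus, was 2.01% without members at 0 in the other library; 12.6% in WT NAD-Capture was 7.99% without the top member and 9.90% without members at 0 in the others; 42.2% in DXO-KO was 12.7% without the top member, 19.5% without members at 0 in the others and 25.8% without replicate 2. Quantile normalization reversed SNORD17 (-0.31) and SNORD97 (-0.96) against RiboMinus, and SNORD10 (-0.57), SNORD97 (-0.065) and SNORD76 (-0.36) between the captured groups. SNORD46 against RiboMinus turned to -1.02 with a pseudocount of 0.1, -0.39 after centring and -1.36 after quantile normalization. Centring turned SNORD33 to 0.31 and SNORD8 to 0.37 between the captured groups, and the fragment scale turned SNORD33 to 0.71 and SNORD76 to 0.055 against RiboMinus. With 1 library left out, ranges that crossed 0 were between the captured groups -3.17 to 5.51 for SNORD21, -4.83 to 4.68 for SNORD33, -3.96 to 3.76 for SNORD8 and -5.08 to 5.67 for SNORD76, and against RiboMinus -2.12 to 4.38 for SNORD46. Of the alternatives for single named members, 464 kept direction and side of the threshold, 29 lost the call, 8 gained it and 27 reversed; the cause was not tested. Where 1 RiboMinus library is left out, the lone one is assumed to vary like the other group.

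Same-numbered libraries did not deviate together (correlations -0.0246, -0.0141 and -0.0302 between the captured groups, -0.0163 and 0.00688 with RiboMinus), so the numbers were not treated as pairs. The replicate block left 0 members called by limma in both comparisons, and 0 of all 25004 and 0 of all 24777 transcripts. At an unadjusted p under 0.05 by limma, 1 and 14 members remained. The share of all transcripts at that unadjusted threshold was not counted, so these member counts have no background beside them. Depth is a limit: the count of 0 allows 12.1 to 18.1 CPM in WT NAD-Capture and up to 37.3 in DXO-KO replicate 3.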
